A study of Drosophila melanogaster with 12 samples.

Results

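On food with 0.25% yeast extract (YE), mRNAs were compared between the heavy and the light polysomes of male flies, with 3 arrays of each fraction. These 6 arrays, of 12 in the study, were taken by their labels. That choice used no measured value, though it was made with earlier results of these data known. Of 18769 probe sets other than controls, the 40% with the lowest mean intensity were left out, and 11261 were tested. The flies were w1118, a laboratory strain of Drosophila melanogaster with white eyes, moved at 1 to 2 days of age to the food for 6 days and extracted as whole males aged 7 to 8 days, about 100 per gradient. Lowering the yeast of the food is a usual form of dietary restriction in this species, and the study set this food beside one with 4% YE. Extracts were sedimented through sucrose, and RNA came from a low fraction, in which mRNAs carried 1 to 4 ribosomes, and a high fraction, with 5 or more. The other 6 arrays held both fractions of flies of the same strain, sex and ages on 4% YE. They enter here as a comparison and through the shared estimate of spread. Normalization, the filter on mean intensity and the choice of each gene's brightest probe set also used all 12 arrays. All groups share the white mutation of the strain, and the labels give no transgene and no further treatment. RNA of about 100 animals was pooled in each sample, so nothing here speaks of differences between animals.

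An mRNA that is read by more ribosomes at once sediments faster, so its place in the gradient reflects how often ribosomes start on it, how fast they move and how much coding sequence there is to hold them. An mRNA with a very short coding sequence has room for few ribosomes, while an RNA that is not translated carries none and stays near the top unless other particles pull it down. The translational index used here is the log2 level of the high fraction less that of the low fraction. A positive index stands for an mRNA richer in heavy polysomes and a negative index for an mRNA richer in light polysomes, each relative to the other mRNAs of these arrays, since the same mass of RNA was labelled for each. The index does not give the share of an mRNA's molecules that lay in a fraction, nor anything on molecules with no ribosome.

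The samples of replicates 2 and 3 were alike, and replicate 1 departed from them in both fractions. Log2 levels correlated at 0.98 between replicates 2 and 3 of the high fraction and of the low fraction. Those of replicate 1 correlated with the other two at 0.92 and 0.90 in the high fraction and at 0.89 and 0.86 in the low fraction. The index of each replicate, its high array minus its low array, correlated at 0.80 between replicates 2 and 3 over 11261 probe sets, but at 0.50 between 1 and 2 and at 0.26 between 1 and 3. What a replicate number stands for is not in the labels, so the pairing of fractions by number is an assumption, and these are descriptions over probe sets. The same correlations on 4% YE were 0.71, 0.77 and 0.90 for replicates 1 and 2, 1 and 3, and 2 and 3. In the deposited values the median intensity of high replicate 1 was 95.6, where the other 11 arrays had medians from 39.3 to 60.4. Results are therefore given over all 3 replicates, and the counts of each gene group also for replicates 2 and 3 alone. Between 59.0% and 66.4% of the probe sets of an array lay above background, taken as the 95th percentile of its control probe sets.

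**Figure D1:**
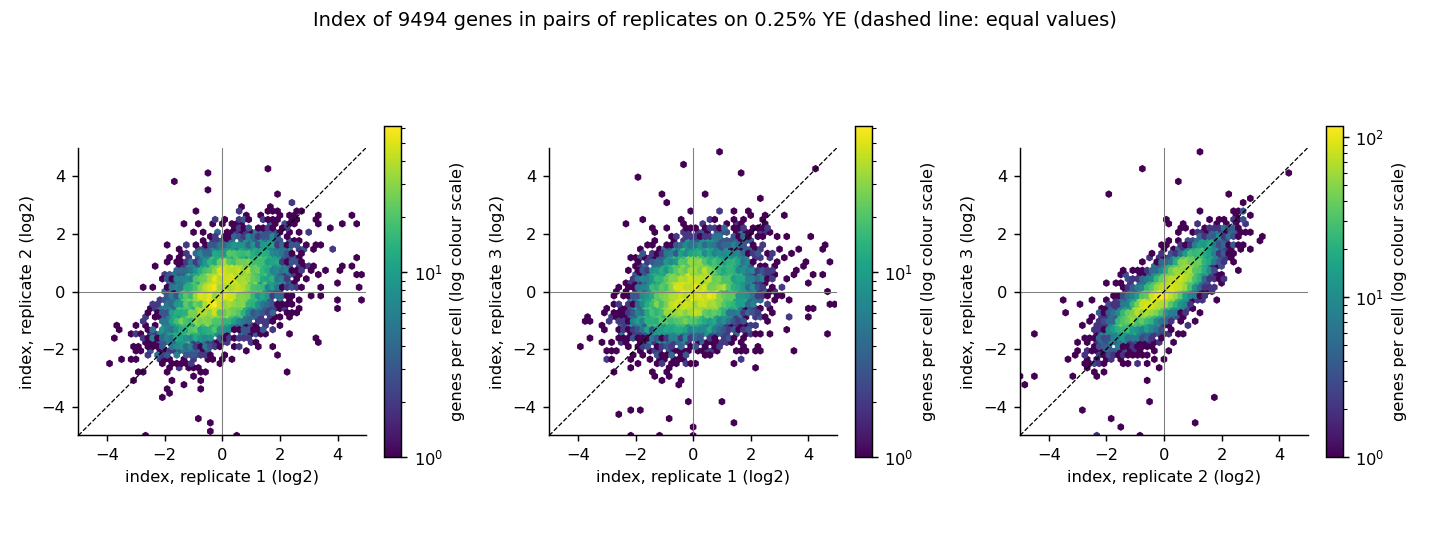
Index (log2, high minus low fraction) of 9494 genes in pairs of replicates on 0.25% YE, with colour for the number of genes in a cell on a log scale and a dashed line where both are equal. Replicates 2 and 3 lie along the line, and replicate 1 spreads away from it against both. A few genes beyond the axes are not drawn.

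The labelled tissue and sex were checked by marker genes. The yolk protein genes Yp1 and Yp2, the eggshell genes Cp36 and Vm26Aa and the ovarian gene otu were at or near background. The yolk protein gene Yp3 was above background in the high arrays, at 55.5, 72.3 and 62.6, and at 33, 8.18 and 23.5 in the low arrays. Of these 6 genes of the female germline and yolk 0 lay above background in all 6 arrays, and their summed level, most of it Yp3 in the high arrays, was 95.5 to 130 in the high arrays and 62.6 to 79.0 in the low arrays. Markers of testis, accessory gland, midgut, muscle, photoreceptors and blood cells were present. Of 5 fat body markers, the lipid carrier apolpp and the iron carrier Tsf1 were high, while the larval serum gene Lsp2 was low and Fbp1 was at 0 in all 6 arrays. In whole animals, fewer cells of a type and less RNA per cell cannot be told apart in such a level. The summed level of the 8 testis markers was 8277 to 11314 in the high and 11361 to 18111 in the low arrays. These markers did not all go 1 way. Mst84Da, Mst84Db, Mst84Dc and Mst98Ca were dimmer in the high array of each replicate. In replicates 2 and 3, but not in replicate 1, dj, ProtB and CG5089 were brighter in the high array, and ProtA was so in replicate 3 alone. The summed level of the 4 photoreceptor markers was 15737 to 17338 in the high and 7812 to 11049 in the low arrays. The 3 neuron markers elav, nSyb and brp summed to 268, 279 and 310.0 in the high and 135, 388 and 297 in the low arrays of replicates 1, 2 and 3, so they were brighter in the low array of replicate 2.

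Of 11261 probe sets tested, 2413 were called different between the fractions at an adjusted p under 0.05 (21.4%), 1088 of them higher in the high fraction (9.66%) and 1325 lower (11.8%). Over 9494 genes, each by its brightest probe set, 944 were called higher (9.94%) and 1119 lower (11.8%), and these are the shares against which each gene group below is to be read. In 3755 probe sets (33.3%) the 3 high and the 3 low arrays did not overlap, and 2272 of the called ones were among them. With replicates 2 and 3 alone the genes called were 28.7% higher and 29.1% lower, and with the replicates as blocks they were 16.9% and 18.2%. The fit of replicates 2 and 3 alone left out replicate 1 on both foods. Those replicates were singled out after they were seen to be alike, which lowers the spread and raises the calls. Its counts are therefore no separate support, and they are to be read against its own shares. The count of 2413 fell to 753 without high replicate 2, to 1122 without high replicate 3 and to 1260 without low replicate 2. The split between directions depends on the scaling. With the values as deposited, in which the median index of all probe sets was 0.41 and not 0.02, 1459 were higher and 124 lower, and with arrays scaled to a common median (median index 0.12) 1387 were higher and 1054 lower. Calls below are from quantile-normalized values, in limma's model over all 12 arrays. A model of these 6 arrays alone called 387. Of the 308 named genes called, 79 kept their call there, 198 with the values as deposited and 134 without any single one of the 12 arrays. A called gene given below with no remark on its call is among these 134, apart from Prosbeta4, Rpn12 and CG3088. For those, calls without an array are not given. Calls lost on the values as deposited, with their adjusted p, are named at the end of a paragraph or beside the gene. After the counts of a group, those of 3 other settings are given, the calls higher first and the calls lower second. The model of the 6 arrays alone kept far fewer calls in most groups. It called 2 proteasome genes higher, and 0 of fatty acid oxidation, the chaperonin CCT and the aminoacyl-tRNA synthetases. It called lower 2 genes of complex I, 1 cytosolic ribosomal protein and 5 genes of the accessory gland group. The metallothioneins kept 4 lower calls there and the long noncoding RNAs 7. Levels are normalized intensities, an index is on the log2 scale with its standard error (SE), n = 3 arrays per fraction, and every adjusted p is limma's. The values of 3 arrays are in the order of replicates 1, 2 and 3.

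**Figure D2:**
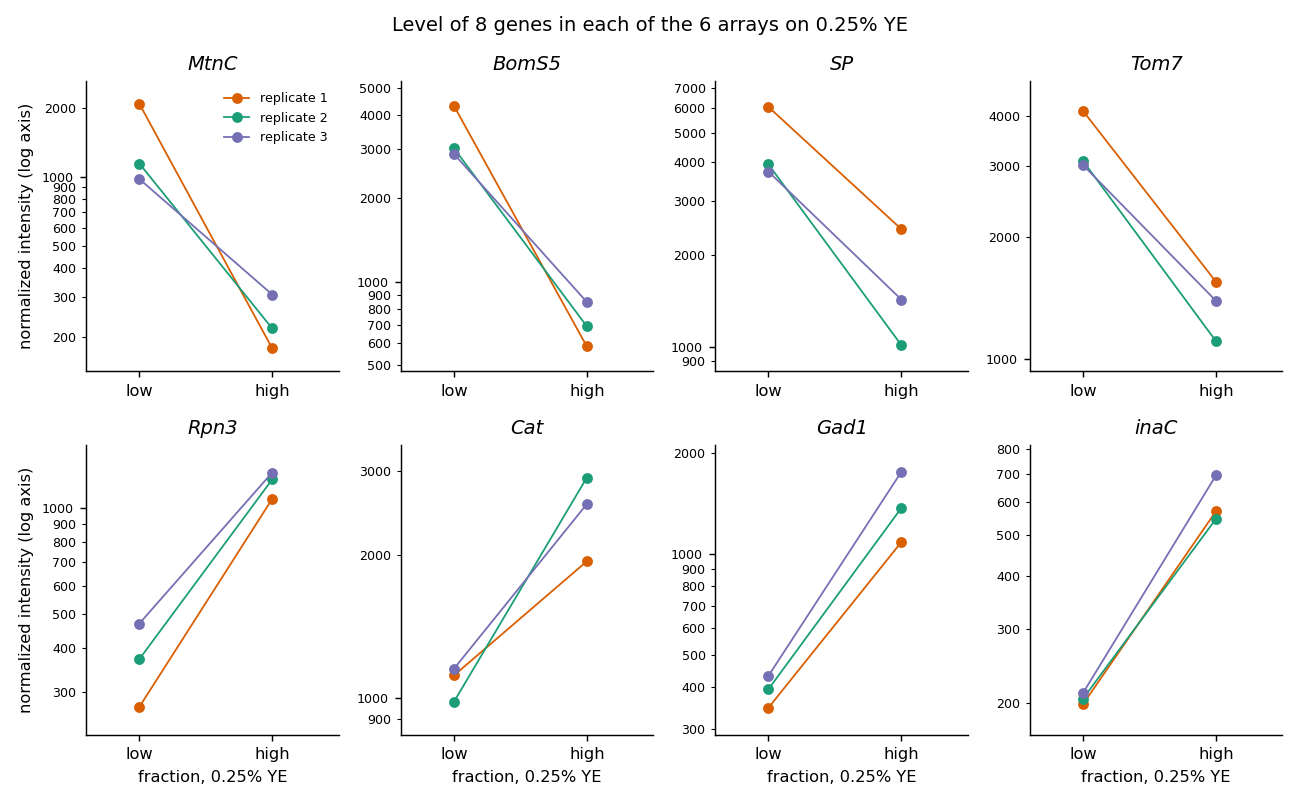
Normalized intensity (log axis) in the low and the high fraction on 0.25% YE for 8 genes, with a line for each replicate. In each of the 8 genes the 3 high arrays lie apart from the 3 low arrays, below them for MtnC, BomS5, SP and Tom7 and above them for Rpn3, Cat, Gad1 and inaC.

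Genes with a short genomic span were richer in light polysomes. The span is the distance between the ends of a gene, introns included, in RefSeq's annotation of assembly Release 6 plus ISO1 MT, and it bounds the length of the coding sequence from above without giving it. Of 151 genes with a span of up to 500 bases, 97 were called lower (64.2%) and 0 higher, and their median index was -1.10. That median was -1.09, -1.30 and -0.91 in replicates 1, 2 and 3, so all 3 had it. Only 9 of the 151 had a positive index. Of 1261 genes with spans over 500 and up to 1000 bases, 322 were called lower (25.5%) and 21 higher (1.67%), with a median of -0.33. Here the replicates differed, at -0.06, -0.49 and -0.47. The genes with spans over 32000 bases stood at the other end. Of these 393, 57 were called higher (14.5%) and 10 lower (2.54%), with a median of 0.37 and values of 0.11, 0.33 and 0.67 in the 3 replicates. With replicates 2 and 3 alone 84.8% of the genes with the shortest spans were called lower, against 29.1% of all genes. Of those with the longest spans 49.6% were called higher there, against 28.7% of all genes. Between 1000 and 16000 bases the medians lay from 0.01 to 0.11. Across 9461 genes with a span the Spearman correlation of index and span was 0.20, and it was -0.03, 0.20 and 0.37 in replicates 1, 2 and 3. Genes are not independent replicates, and levels differed along the same axis, with a median of 360 in the shortest and 114 in the longest class. A coding sequence's own length was not measured, and its part in these differences was not tested.

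**Figure D3:**
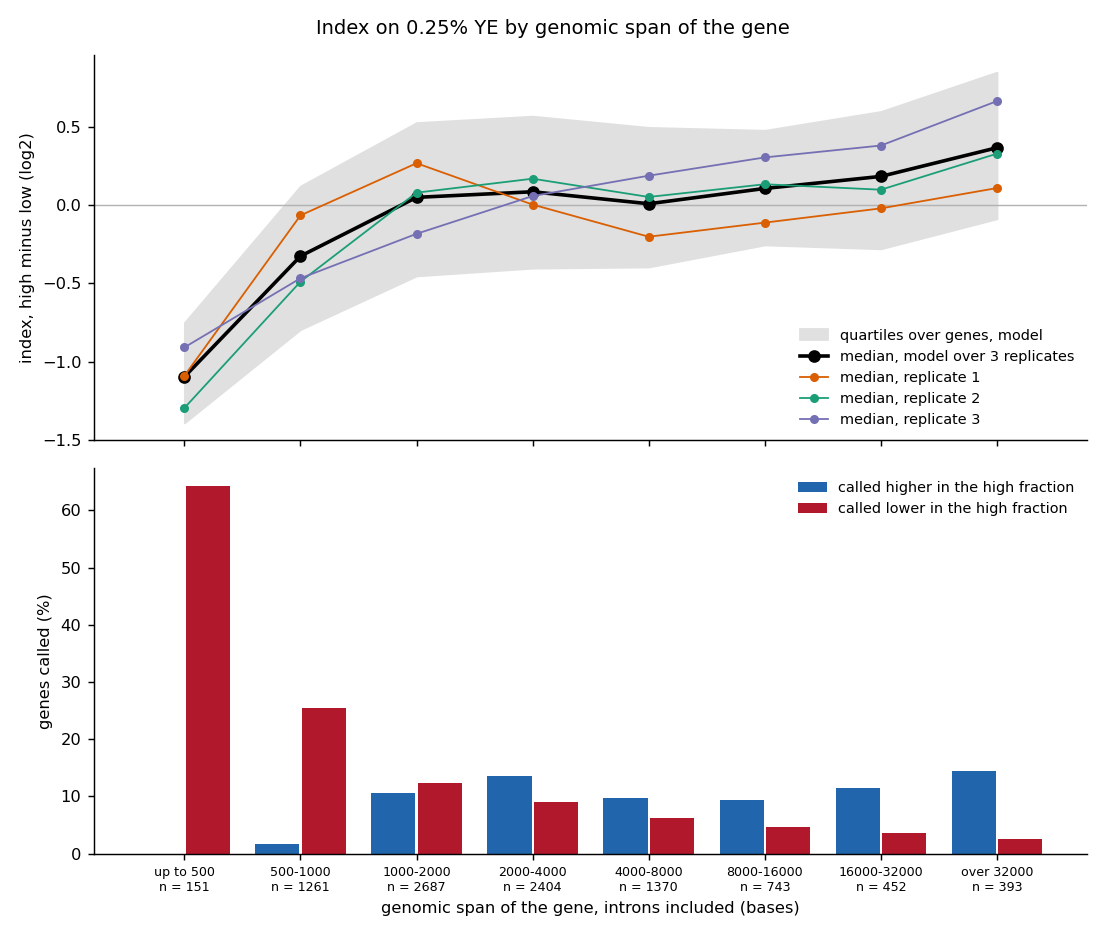
Above, the median index (log2) in 8 classes of genomic span for the model over 3 replicates with its quartiles over genes, and for each replicate. Below, the share of genes called higher or lower in the high fraction. The class up to 500 bases had a median of -1.10 and 64.2% called lower, and the class over 32000 bases a median of 0.37 and 14.5% called higher.

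Metallothioneins, small cysteine-rich proteins that bind copper, zinc and cadmium, stood furthest on the light side. All 4 measured genes were called lower, with a median index of -2.35 (-2.78, -2.07 and -1.85 in replicates 1, 2 and 3). MtnC read 178, 218 and 306 in the high arrays and 2089, 1145 and 980.2 in the low arrays. The groups did not overlap, and the gap was widest in replicate 1. Its index was -2.54 ± 0.30 (adjusted p = 0.0012). MtnB, at 37.3, 32 and 25 in the high arrays and 252, 111 and 104.3 in the low arrays, gave -2.17 ± 0.42 (adjusted p = 0.0058), and MtnD, at 29.6, 11.7 and 18.3 in the high arrays and 217, 87.5 and 103.6 in the low arrays, gave -2.69 ± 0.40 (adjusted p = 0.0022). Of the high arrays of MtnD replicate 1 alone lay above background, so the size of its index is uncertain. MtnA was far brighter in both fractions, at 5143, 4955 and 5426 in the high arrays and 8454, 8693 and 8693 in the low arrays, and its index of -0.74 ± 0.12 (adjusted p = 0.0031) was the smallest of the family in size.

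Calls among secreted immune peptides were also on the light side. These are short peptides that the fat body and other epithelia release into the blood after infection. Of 10 Bomanins and related peptides, which Toll signalling induces, 5 were called lower (3 without high replicate 2 or low replicate 2) and none higher, with a median of -0.71. For Bomanins and secreted immune peptides the replicate block gave 0 and 5, replicates 2 and 3 alone 0 and 9 and the deposited values 0 and 3. BomS5 read 585, 691 and 846 in the high arrays and 4303, 3026 and 2888 in the low arrays, with no overlap and an index of -2.26 ± 0.21 (adjusted p = 0.00080). BomS4 read 1354, 1398 and 1709 in the high arrays and 5231, 3629 and 3539 in the low arrays (-1.46 ± 0.20, adjusted p = 0.0019) and BomS6 read 2635, 2483 and 2630.2 in the high arrays and 6814, 5051 and 4243 in the low arrays (-1.03 ± 0.17, adjusted p = 0.0032). The 3 short Bomanins thus had high and low arrays that did not overlap, with low replicate 1 the brightest array for each. Of 9 antimicrobial peptide genes, 4 were called lower, none higher and 5 not called, with a median of -0.85 and of -0.46, -1.12 and -0.69 in the replicates. For antimicrobial peptides the replicate block gave 0 and 6, replicates 2 and 3 alone 0 and 7 and the deposited values 0 and 0. Anp, the andropin of the male ejaculatory duct, read 2782, 1301 and 1674 in the high arrays and 5365, 3722 and 3426 in the low arrays, with an index of -1.17 ± 0.25 (adjusted p = 0.0083). Drsl5 and Drsl4, relatives of the antifungal peptide drosomycin, gave -0.91 ± 0.19 (adjusted p = 0.0078) and -0.83 ± 0.16 (adjusted p = 0.0051). Drs, drosomycin itself, read 986, 771 and 911 in the high arrays and 1276, 1666 and 1907 in the low arrays (-0.85 ± 0.19, adjusted p = 0.0098), and its call was lost without high replicate 2 (adjusted p = 0.053) and on the values as deposited (adjusted p = 0.57), with adjusted p = 3.8e-05 to 0.57 over its alternatives. Receptors and signalling proteins of the same pathways were not on that side as a group. Of 23 measured, 3 were called higher and 1 lower. For immune recognition and signalling the replicate block gave 4 and 1, replicates 2 and 3 alone 9 and 3 and the deposited values 4 and 0. The count of 3 was 0 without high replicate 2, high replicate 3 or low replicate 2, and 1 without low replicate 1, low 4% YE replicate 3 or either of high 4% YE replicates 2 and 3. The lower one was the recognition protein PGRP-LA, at -0.88 ± 0.17 (adjusted p = 0.0058). The calls of Anp, Drsl5, Drsl4 and PGRP-LA were lost on the values as deposited (adjusted p = 0.064 to 0.43).

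Proteins of the male reproductive tract made up a large light group. Accessory glands fill the seminal fluid with short peptides and larger proteins that change female egg laying and receptivity after mating. Of 34 measured mRNAs 17 were called lower, 1 higher and 16 not called, with a median of -0.79 (-0.25, -1.19 and -0.93). The count of 17 was 10 without high replicate 2. For the accessory gland group the replicate block gave 1 and 18, replicates 2 and 3 alone 1 and 29 and the deposited values 1 and 6. The sex peptide gene SP, whose product alters the mated female's behaviour, read 2425, 1016 and 1429.9 in the high arrays and 6065, 3942 and 3734 in the low arrays. Every low array exceeded every high array, and its index was -1.55 ± 0.27 (adjusted p = 0.0039). Sfp33A3, Sfp26Ad, Mst57Dc and Acp98AB gave -1.67 ± 0.26, -1.56 ± 0.27, -1.45 ± 0.24 and -1.21 ± 0.16 (largest adjusted p = 0.0039). The exception was Acp36DE, which is needed to store sperm in the female and is a large protein, at 4889.5, 7851 and 8693 in the high arrays and 2099, 3578 and 4458 in the low arrays. Its index was 1.11 ± 0.31 (adjusted p = 0.027), and the call was lost without high replicate 2 (adjusted p = 0.11), high replicate 3 (adjusted p = 0.10), low replicate 1 (adjusted p = 0.080) and low replicate 2 (adjusted p = 0.056), with adjusted p = 2.5e-05 to 0.11 over its alternatives. The call of Sfp26Ad was lost on the values as deposited (adjusted p = 0.051).

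Odorant-binding proteins, small soluble carriers of hydrophobic ligands, divided. 10 of 29 were called lower (4 without high replicate 2, 5 without high replicate 3 and 6 without low replicate 2) and none higher, yet the group's median was 0.04, and it differed between the replicates, at 0.59, -0.35 and -0.48. For odorant-binding proteins the replicate block gave 1 and 10, replicates 2 and 3 alone 1 and 15, with a median of -0.48, and the deposited values 1 and 1. Obp8a read 90.4, 45.4 and 50.2 in the high arrays and 409, 238 and 301 in the low arrays, an index of -2.36 ± 0.28 (adjusted p = 0.0012). The low arrays were brighter in every replicate. Obp18a, Obp19a and Obp57a gave -1.31 ± 0.23, -1.13 ± 0.24 and -0.82 ± 0.16 (largest adjusted p = 0.0080). The calls of Obp18a, Obp19a and Obp57a were lost on the values as deposited (adjusted p = 0.12 to 0.56).

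Of 18 genes of the sperm tail and late spermatid, whose mRNAs are made early and stored before they are translated, 5 were called lower (3 without high replicate 2) and none higher over 3 replicates. For sperm tail and late spermatid genes the replicate block gave 0 and 6, replicates 2 and 3 alone 5 and 7 and the deposited values 0 and 0. The median over 3 replicates was -0.43, and it was -1.13, -0.13 and 0.01 in the 3 replicates, so most of it lay in replicate 1. Mst84Dc and Mst84Dd, small proteins of the sperm tail, gave -1.15 ± 0.19 (adjusted p = 0.0033) and -1.26 ± 0.27 (adjusted p = 0.0085), and Mst87F gave -0.82 ± 0.17 (adjusted p = 0.0084). Mst84Dc read 1422, 1051 and 1370.0 in the high arrays and 3355, 2666 and 2485 in the low arrays. Of 4 sperm leucyl aminopeptidases 2 were called lower, with a median of -0.92, and of 10 axonemal dyneins 2 lower, with a median of -0.32. For axonemal dyneins the replicate block gave 0 and 2, replicates 2 and 3 alone 1 and 4 and the deposited values 0 and 0. For sperm leucyl aminopeptidases the replicate block gave 0 and 2, replicates 2 and 3 alone 1 and 2 and the deposited values 0 and 0. The lower calls were 1 without high replicate 2, high replicate 3 or low replicate 2 in both, and in the aminopeptidases also without low replicate 1. Among the largest indices were 2 genes of the male germline on the heavy side. The gene blanks, which encodes an RNA-binding protein of the male germline, read 602, 1279 and 1678 in the high arrays and 119, 259 and 403 in the low arrays, with an index of 2.23 ± 0.45 (adjusted p = 0.0070), and nsr, a regulator of spermatogenesis, read 278, 828 and 849 in the high arrays and 80.9, 119 and 146 in the low arrays, with 2.36 ± 0.40 (adjusted p = 0.0036). Both were chosen among genes whose high and low arrays did not overlap, so that separation is no finding. In both, replicate 1 was the dimmest of its fraction. Among Y-linked fertility genes, which are active in spermatocytes, 3 of 4 measured were called higher (1 without high replicate 2 or high replicate 3), with a median of 2.32. For Y-linked genes the replicate block gave 4 and 0, replicates 2 and 3 alone 4 and 0 and the deposited values 3 and 0. ORY read 25.1, 147 and 206 in the high arrays and 7.50, 6.68 and 11.2 in the low arrays. The low arrays were all at background, so its high fraction was at least 6.14-fold brighter, with adjusted p = 0.0070, and high replicate 1 was far below the other high arrays. ARY and Ppr-Y gave 2.60 ± 0.79 and 2.03 ± 0.50, and 2 and 1 of their 3 low arrays lay above background. ARY lost its call without high replicate 2 (adjusted p = 0.14), high replicate 3 (adjusted p = 0.13), low replicate 1 (adjusted p = 0.099) and low replicate 2 (adjusted p = 0.063), with adjusted p = 1.3e-05 to 0.14 over its alternatives, and Ppr-Y without high replicate 2 (adjusted p = 0.082) and high replicate 3 (adjusted p = 0.075), with adjusted p = 5.3e-05 to 0.082. The calls of Mst84Dc, Mst84Dd and Mst87F were lost on the values as deposited (adjusted p = 0.12 to 0.25).

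The calls among noncoding RNAs lay in the low fraction. Of 30 measured genes named as such, 10 were called lower, none higher and 20 not called, with a median of -0.86 and of -1.34, -0.70 and -0.56 in the replicates. For long noncoding RNAs the replicate block gave 0 and 15, replicates 2 and 3 alone 3 and 16 and the deposited values 0 and 6. The RNA lncRNA:CR33942 read 80.6, 44.8 and 64.5 in the high arrays and 1239, 259.8 and 260.0 in the low arrays (-2.81 ± 0.52, adjusted p = 0.0047), and low replicate 1 was by far the brightest. The gene pncr003:2L was first taken for noncoding and encodes very short peptides known to act on the calcium pump of muscle. It read 64.8, 78.7 and 131 in the high arrays and 538, 669 and 554 in the low arrays, with an index of -2.73 ± 0.35 (adjusted p = 0.0015), so that each low array was more than 4-fold above each high array. The genes pncr008:3L, pncr004:X and lncRNA:CR43242 gave -1.75 ± 0.22, -1.72 ± 0.31 and -1.49 ± 0.24 (largest adjusted p = 0.0045). By RefSeq's classes, 7 of 26 noncoding genes were called lower and 0 higher, with a median of -0.77, against a median of 0.02 over 9433 protein-coding genes. RNA lighter than the low fraction was not analysed here, and what these RNAs sedimented with was not measured.

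Calls among mitochondrial import proteins were on the light side too. Most mitochondrial proteins are made in the cytosol and carried in by the TOM and TIM complexes, whose small subunits guard hydrophobic cargo between the membranes. Of 12 measured subunits 7 were called lower and none higher, with a median of -0.98 and of -0.93, -1.16 and -0.98 in the replicates. For mitochondrial protein import the replicate block gave 0 and 8, replicates 2 and 3 alone 0 and 11 and the deposited values 0 and 1. Tom7, a small subunit of the outer membrane complex, read 1552, 1105 and 1392 in the high arrays and 4116, 3092 and 3022 in the low arrays, with an index of -1.34 ± 0.17 (adjusted p = 0.0015). Tim13 read 223, 163 and 219 in the high arrays and 1001, 496 and 473 in the low arrays, with -1.62 ± 0.29 (adjusted p = 0.0042). For both the low arrays lay above all high arrays. Tim9a and Tim8, chaperones between the membranes, gave -1.33 ± 0.22 and -1.10 ± 0.21 (adjusted p = 0.0033 and adjusted p = 0.0054), and Tim17b1, a paralog of the inner membrane channel subunit, gave -1.50 ± 0.19 (adjusted p = 0.0015). CG32267, for which the RefSeq table gives Tom5 as a synonym, read 558, 544 and 703 in the high arrays and 3092, 2064 and 1829 in the low arrays, with -1.92 ± 0.26 (adjusted p = 0.0017). The genes fixed as encoding very short proteins, 14 of which were measured and several of which belong to these assemblies, had 12 called lower and none higher, with a median of -0.92 and of -0.74, -1.12 and -0.93 in the replicates. For very short proteins the replicate block gave 0 and 13, replicates 2 and 3 alone 0 and 13 and the deposited values 0 and 7. The calls of Tim13, Tim9a, Tim8 and Tim17b1 were lost on the values as deposited (adjusted p = 0.054 to 0.33).

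In several assemblies, subunits were called in both directions. Over all genes 9.94% were called higher and 11.8% lower, so calls both ways are no trait of an assembly by themselves. Protein size was not measured here, and where a subunit is called small or large below, that is background. Respiratory complex I takes electrons from NADH, and of its 31 measured subunits and paralogs 13 were called lower, 3 higher and 15 not called. For respiratory complex I the replicate block gave 4 and 13, replicates 2 and 3 alone 5 and 22 and the deposited values 2 and 1. The count of lower calls was 2 without high replicate 2, 4 without high replicate 3 or low replicate 2 and 8 without low replicate 1, and that of higher calls was 0 without high replicate 2, 1 without high replicate 3 and 5 without high replicate 1. ND-MNLL, among the smallest subunits, read 1559, 1155 and 1614 in the high arrays and 4916, 3794 and 3768 in the low arrays, an index of -1.53 ± 0.18 (adjusted p = 0.0012), while ND-51, a core subunit that binds NADH, read 4230.0, 5091 and 4448 in the high arrays and 2050.1, 2799 and 3319 in the low arrays, an index of 0.78 ± 0.17 (adjusted p = 0.010). The call of ND-51 was lost without high replicate 2 (adjusted p = 0.055), with adjusted p = 0.00023 to 0.071 over its alternatives. The other subunits called higher were ND-75, a core subunit with iron-sulphur clusters, at 0.63, and ND-42, at 0.62. ND-75 lost its call without high replicate 2 (adjusted p = 0.095), high replicate 3 (adjusted p = 0.087) and low replicate 2 (adjusted p = 0.067), with adjusted p = 0.00028 to 0.12 over its alternatives. ND-42 lost it without high replicate 2 (adjusted p = 0.10) and high replicate 3 (adjusted p = 0.067) and on the values as deposited (adjusted p = 0.056), with adjusted p = 0.00084 to 0.11. Of the other respiratory complexes, 4 of 10 measured genes of complex IV and 3 of 7 of complex III and cytochrome c were called lower, none higher. For respiratory complex IV the replicate block gave 0 and 5, replicates 2 and 3 alone 0 and 8 and the deposited values 0 and 1. For respiratory complex III and cytochrome c the replicate block gave 0 and 3, replicates 2 and 3 alone 0 and 6 and the deposited values 0 and 1. The 3 became 5 without high replicate 1. Among these the small subunits COX8, COX7C, ox and UQCR-Q gave -0.85 ± 0.16, -0.64 ± 0.14, -1.11 ± 0.18 and -0.63 ± 0.13 (largest adjusted p = 0.0083). Of 14 genes of the ATP synthase 1 was called higher and 4 lower. For the ATP synthase the replicate block gave 1 and 4, replicates 2 and 3 alone 1 and 8 and the deposited values 1 and 0. The lower calls were 2 without high replicate 2, and the higher calls 0 without high replicate 2 and 2 without low replicate 3. Its small subunit ATPsynCF6, at 3752, 1966 and 2217 in the high arrays and 5061, 4854 and 4693 in the low arrays, gave -0.94 ± 0.20 (adjusted p = 0.0090). The calls of COX7C, UQCR-Q and ATPsynCF6 were lost on the values as deposited (adjusted p = 0.10 to 0.22).

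The vacuolar ATPase, which pumps protons into lysosomes and vesicles, had calls in both directions. Of 31 measured genes 5 were called higher (0 without high replicate 3, 1 without high replicate 2 or low replicate 2 and 3 without high 4% YE replicate 2 or high 4% YE replicate 3 or low replicate 1 or low 4% YE replicate 2 or low 4% YE replicate 3) and 8 lower (1 without high replicate 2, 3 without high replicate 3 and 4 without low replicate 2). For the vacuolar ATPase the replicate block gave 8 and 13, replicates 2 and 3 alone 8 and 16 and the deposited values 4 and 0. VhaM9.7-d, of the small membrane subunit, read 79.0, 61.8 and 83.1 in the high arrays and 193, 185 and 206 in the low arrays, with -1.38 ± 0.23 (adjusted p = 0.0036). Also called lower were VhaM9.7-a, a paralog of that subunit, Vha16-3 and Vha16-4, of the membrane ring, at -1.03, -0.75 and -0.85, and Vha36-2, a paralog of a subunit of the central stalk, at -1.18 ± 0.33 (adjusted p = 0.025). Without high replicate 2 the calls of VhaM9.7-a, Vha16-3 and Vha16-4 were lost (adjusted p = 0.062, 0.12 and 0.072). Vha16-3 lost its call also without high replicate 3 (adjusted p = 0.084), low replicate 2 (adjusted p = 0.087) and low replicate 3 (adjusted p = 0.075). The call of Vha36-2 was lost without high replicate 2 (adjusted p = 0.080) and high replicate 3 (adjusted p = 0.060) and on the values as deposited (adjusted p = 0.16), with adjusted p = 0.011 to 0.16 over its alternatives. Those called higher were Vha26, Vha44 and Vha55, subunits of the part in the cytosol, and Vha100-1 and Vha100-5, of the largest membrane subunit. Without high replicate 3 none of these 5 calls was left. Vha26, at 4039, 5084 and 4955 in the high arrays and 2343, 3375 and 3269 in the low arrays, gave 0.66 ± 0.16 (adjusted p = 0.015), with a call lost without high replicate 2 (adjusted p = 0.071) and high replicate 3 (adjusted p = 0.059) and on the values as deposited (adjusted p = 0.056) and adjusted p = 6.4e-05 to 0.098 over its alternatives. In the machinery that brings proteins to the endoplasmic reticulum, Srp72, a large protein of the signal recognition particle, read 259.5, 229 and 224 in the high arrays and 109, 95.4 and 122 in the low arrays (1.13 ± 0.22, adjusted p = 0.0058), and Sec61gamma, the smallest part of the channel, read 1790.4, 1142 and 1311 in the high arrays and 3244, 2466 and 2515 in the low arrays (-0.97 ± 0.23, adjusted p = 0.014). The groups of both genes did not overlap, in opposite directions. The Sec61gamma call was lost without high replicate 2 (adjusted p = 0.072) and high replicate 3 (adjusted p = 0.051) and on the values as deposited (adjusted p = 0.25), with adjusted p = 1.4e-05 to 0.25 over its alternatives. In all, 3 of 21 genes of this machinery were called higher (1 without high replicate 2) and 3 lower (0 without high replicate 2 or high replicate 3, 1 without low replicate 2 and 5 without high replicate 1). For the translocon group the replicate block gave 3 and 5, replicates 2 and 3 alone 6 and 9 and the deposited values 3 and 0. Its counts over all arrays lay near the shares over all genes. The calls of VhaM9.7-d, VhaM9.7-a, Vha16-3 and Vha16-4 were lost on the values as deposited (adjusted p = 0.10 to 0.55).

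In the nucleus, the RNA polymerase, general factor and Mediator genes had 5 of 65 called higher (0 without high replicate 2, 2 without high replicate 3, 3 without low replicate 2 and 8 without low replicate 3) and 7 lower (3 without high replicate 2, 4 without high replicate 3 and 11 without high replicate 1). For the polymerase and Mediator group the replicate block gave 12 and 10, replicates 2 and 3 alone 18 and 18 and the deposited values 6 and 0. Polr2L, a small subunit shared by the nuclear polymerases, read 594, 301 and 410.1 in the high arrays and 1831, 1050.0 and 1001 in the low arrays, with -1.57 ± 0.29 (adjusted p = 0.0051), and Polr2K, another, gave -1.45 ± 0.29 (adjusted p = 0.0065). Taf12, a small histone-like part of the general factor TFIID, gave -0.87 ± 0.18 (adjusted p = 0.0073). Polr3B, a catalytic subunit of RNA polymerase III, read 80.8, 104.3 and 103.95 in the high arrays and 56.4, 33.3 and 36.6 in the low arrays, with 1.20 ± 0.26 (adjusted p = 0.0096), a call lost without high replicate 2 (adjusted p = 0.052), with adjusted p = 4.1e-05 to 0.057 over its alternatives. The subunits of the general factor TFIIE went apart. TfIIEalpha gave -0.87 ± 0.22 (adjusted p = 0.016), a call lost without high replicate 2 (adjusted p = 0.086) and high replicate 3 (adjusted p = 0.066) and on the values as deposited (adjusted p = 0.51), with adjusted p = 9.0e-05 to 0.51 over its alternatives, and TfIIEbeta gave 1.23 ± 0.31 (adjusted p = 0.019), a call lost without high replicate 2 (adjusted p = 0.086) and high replicate 3 (adjusted p = 0.065), with adjusted p = 0.00027 to 0.091. In the spliceosome, Sf3b6, a small part of a complex that recognises the branch point, read 500.3, 358 and 436 in the high arrays and 1059.9, 1025 and 1035 in the low arrays (-1.28 ± 0.22, adjusted p = 0.0039). Of 35 genes 3 were called lower (1 without high replicate 2 and 6 without high replicate 1) and 4 higher (0 without high replicate 2 and 2 without high replicate 3). For spliceosome and snRNP proteins the replicate block gave 5 and 6, replicates 2 and 3 alone 9 and 11 and the deposited values 3 and 0. The counts of the spliceosome and of the polymerase and Mediator group lay near the shares over all genes, 9.94% higher and 11.8% lower. In the ubiquitin system, the RING protein Roc1a, a small subunit of cullin ligases, read 337, 225 and 272 in the high arrays and 732, 611 and 513 in the low arrays (-1.16 ± 0.21, adjusted p = 0.0050). The substrate adaptor slmb gave 1.19 ± 0.22 (adjusted p = 0.0051) and the ubiquitin hydrolase Usp5 gave 1.25 ± 0.25 (adjusted p = 0.0063), on the heavy side. Of 41 genes of this system 3 were called higher, 5 lower and 33 not called, with a median of 0.03. Both counts lay near the shares over all genes. Without high replicate 2 they were 2 and 1, and without high replicate 1 they were 6 and 9. For ubiquitin conjugation the replicate block gave 6 and 7, replicates 2 and 3 alone 15 and 12 and the deposited values 9 and 0. The calls of Polr2L, Polr2K, Taf12, Sf3b6 and Roc1a were lost on the values as deposited (adjusted p = 0.091 to 0.50).

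**Figure D4:**
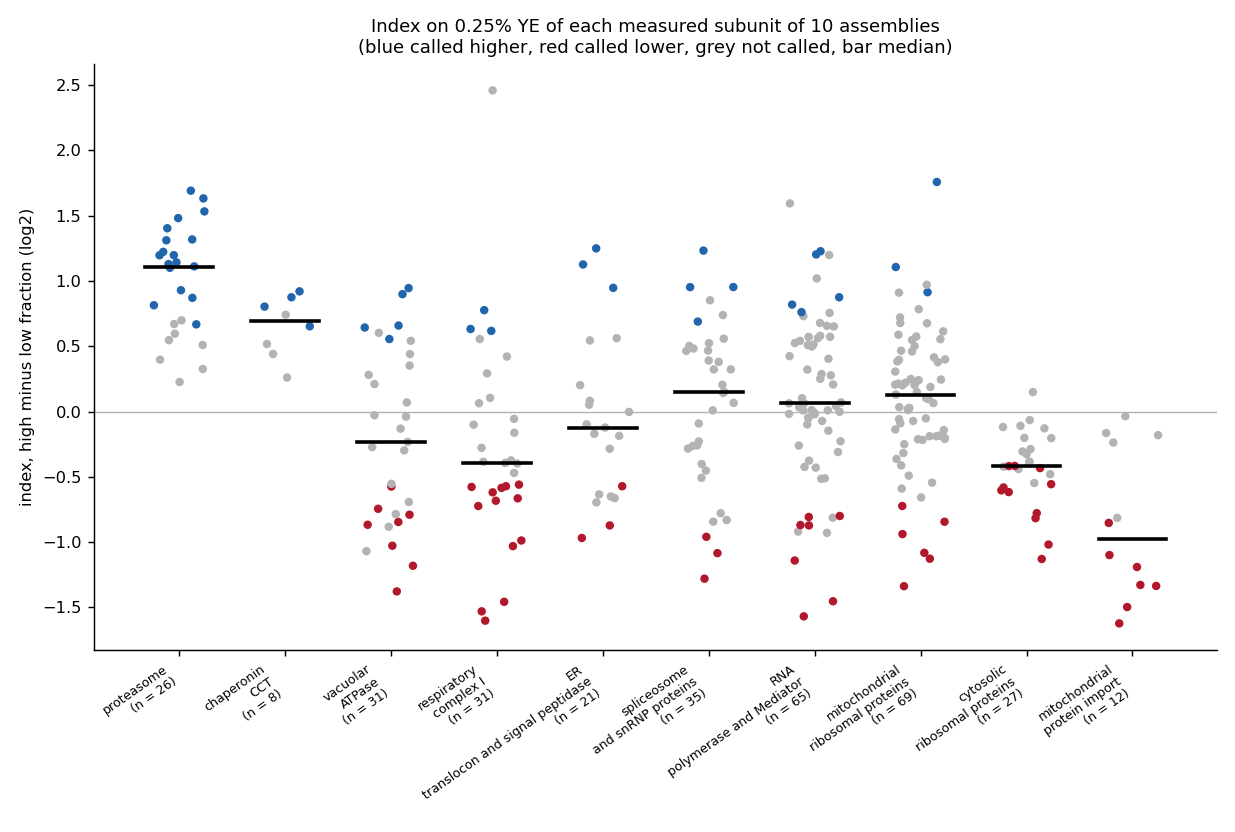
Index (log2, high minus low fraction) on 0.25% YE of each measured subunit of 10 assemblies, blue where called higher, red where called lower and grey where not called, with a bar at the median. The proteasome and the chaperonin hold blue and grey points alone, cytosolic ribosomal proteins and mitochondrial import red and grey alone, and the other 6 assemblies hold all 3 colours.

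Ribosomal proteins of the cytosol, whose mRNAs start with a pyrimidine tract through which TOR controls them in mammals, were moderately on the light side. Of 27 measured genes with their own probe set, 11 were called lower, none higher and 16 not called. For cytosolic ribosomal proteins the replicate block gave 0 and 15, replicates 2 and 3 alone 1 and 22 and the deposited values 0 and 1. The median was -0.42 (-0.30, -0.57 and -0.30), and 26 of the 27 had a negative index. The count of 11 was 1 without high replicate 2, 5 without high replicate 3 or low replicate 1 or low replicate 2 and 19 without high replicate 1. RpL41, the shortest, read 5426, 5190.2 and 5797 in the high arrays and 9277, 7928 and 8011 in the low arrays, with -0.62 ± 0.10 (adjusted p = 0.0029), and the groups did not overlap. Mitochondrial ribosomal proteins behaved differently from replicate to replicate. Of 69 measured, 3 were called higher and 6 lower, with a median of 0.13 that was 0.84, -0.09 and -0.50 in replicates 1, 2 and 3. The direction of the group turns with replicate 1. For mitochondrial ribosomal proteins the replicate block gave 5 and 6, replicates 2 and 3 alone 8 and 31, with a median of -0.32, and the deposited values 5 and 0. Over 3 replicates the higher calls were 1 without high replicate 2 and 8 without low replicate 3, and the lower calls 1 without high replicate 2, 2 without high replicate 3, 3 without high 4% YE replicate 2 or high 4% YE replicate 3 or low replicate 1 or low replicate 2 or low 4% YE replicate 2 or low 4% YE replicate 3 and 11 without high replicate 1. Those whose calls held without any single array were mRpL55, at -1.08 ± 0.19 (adjusted p = 0.0039), and mRpL45, at 0.91 ± 0.19 (adjusted p = 0.0078). The call of mRpL55 was lost on the values as deposited (adjusted p = 0.31).

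On the heavy side the proteasome, the barrel-shaped protease that degrades ubiquitin-tagged proteins, had the largest share of members called higher among the groups with more than 10 genes. Of 26 measured subunits 18 were called higher, none lower and 8 not called, and all 26 had a positive index, with a median of 1.11 (1.69, 0.99 and 0.39 in replicates 1, 2 and 3). The count of 18 was 6 without high replicate 2 and 11 without high replicate 3. For the proteasome the replicate block gave 21 and 0, replicates 2 and 3 alone 21 and 0 and the deposited values 21 and 0. The model of the 6 arrays alone gave 2 and 0. Rpn3, a scaffold subunit of the lid, read 1059, 1203 and 1258 in the high arrays and 272, 371 and 468 in the low arrays. Every high array exceeded every low array by more than 2-fold, and the index was 1.69 ± 0.23 (adjusted p = 0.0017). Rpt2 and Rpt3, ATPases of the base, gave 1.53 ± 0.31 and 1.40 ± 0.29 (adjusted p = 0.0067 and adjusted p = 0.0071), Rpn5 of the lid 1.20 ± 0.20 (adjusted p = 0.0036) and Prosalpha7 of the core ring 1.14 ± 0.20 (adjusted p = 0.0039). The subunits Prosbeta4 and Rpn12 were called higher although their genes span under 1000 bases. Of 11 testis paralogs of core subunits 2 were called lower and none higher, with a median of 0.05. For testis proteasome paralogs the replicate block gave 1 and 3, replicates 2 and 3 alone 3 and 4, with a median of -0.03, and the deposited values 0 and 0. Without high replicate 1, 2 were called higher, and without high replicates 2 or 3 or low replicate 1, 1 was called lower. Of the 2 called over all arrays, Prosalpha4T2 read 63.9, 31.9 and 33 in the high arrays and 149, 107 and 152 in the low arrays, with -1.70 ± 0.30 (adjusted p = 0.0039), and the second, Prosbeta2R2, lost its call without high replicate 2 (adjusted p = 0.068), high replicate 3 (adjusted p = 0.094) and low replicate 1 (adjusted p = 0.066) and on the values as deposited (adjusted p = 0.13), with adjusted p = 0.0011 to 0.13 over its alternatives. The call of Prosalpha4T2 was lost on the values as deposited (adjusted p = 0.063).

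The chaperonin CCT, which folds actin and tubulin, had 4 of 8 subunits called higher and none lower, with a median of 0.70 and of 0.58, 0.86 and 0.60 in the replicates. For the chaperonin the replicate block gave 5 and 0, replicates 2 and 3 alone 8 and 0 and the deposited values 5 and 0. The count of 4 was 0 without high replicate 2 or low replicate 2 and 2 without high replicate 1 or high replicate 3 or low replicate 3. CCT1 read 598, 735 and 736 in the high arrays and 412, 307 and 376 in the low arrays, with 0.92 ± 0.21 (adjusted p = 0.012), and its call was lost without high replicate 2 (adjusted p = 0.060) and low replicate 2 (adjusted p = 0.054), with adjusted p = 0.00011 to 0.077 over its alternatives. Of 26 genes of ribosome biogenesis, which act mostly in the nucleolus, 8 were called higher (4 without high replicate 2 or high replicate 3 and 5 without low replicate 2 or low 4% YE replicate 3) and none lower over 3 replicates, with a median of 0.56 and of 0.36, 0.80 and 0.72 in the replicates. For ribosome biogenesis the replicate block gave 11 and 3, replicates 2 and 3 alone 16 and 4 and the deposited values 8 and 0. Ns1, a nucleolar GTPase, read 336, 631 and 805 in the high arrays and 149.5, 169 and 175 in the low arrays, with 1.75 ± 0.31 (adjusted p = 0.0039). All high arrays lay above the low arrays, and replicate 1 was the least apart. The RNA helicase pit gave 1.00 ± 0.19 (adjusted p = 0.0059). Nop60B, the pseudouridine synthase of ribosomal RNA, gave 1.10 ± 0.21 (adjusted p = 0.0051) by its brighter probe set, while its other probe set had a negative index. Of 30 aminoacyl-tRNA synthetases, which load amino acids onto tRNAs, 7 were called higher (2 without high replicate 2 or high replicate 3 and 4 without low replicate 2) and none lower, with a median of 0.45. For aminoacyl-tRNA synthetases the replicate block gave 11 and 0, replicates 2 and 3 alone 17 and 2 and the deposited values 11 and 0. ThrRS read 461, 434 and 442 in the high arrays and 229.6, 212 and 239 in the low arrays, a narrow spread in each fraction, with 0.97 ± 0.18 (adjusted p = 0.0051), and CysRS gave 0.82 ± 0.18 (adjusted p = 0.0096). Initiation factors showed no common side, with 1 called higher and 2 lower of 40 and a median of -0.04. For translation initiation factors the replicate block gave 5 and 6, replicates 2 and 3 alone 10 and 8, with a median of 0.15, and the deposited values 3 and 0. The higher calls were 0 without high replicate 2 or high replicate 3 or low replicate 2, 2 without high 4% YE replicate 1 or low replicate 1 and 5 without high replicate 1, and the lower calls 0 without high replicate 2, 1 without high replicate 3 and 4 without high replicate 1.

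Among enzymes of energy and nitrogen metabolism, those of fatty acid oxidation were mostly called higher, and in the other groups most members were not called. In the oxidation of fatty acids 7 of 13 enzymes were called higher (3 without high replicate 2 or low replicate 2 and 4 without high replicate 3 or high 4% YE replicate 3) and none lower, with a median of 0.72 and of 0.73, 0.77 and 0.83 in the replicates. For fatty acid oxidation the replicate block gave 9 and 0, replicates 2 and 3 alone 10 and 0 and the deposited values 8 and 0. The thiolase yip2 read 1837, 3197 and 3192 in the high arrays and 389, 896 and 1199 in the low arrays, with an index of 1.83 ± 0.36 (adjusted p = 0.0059). Acadvl, a very long chain acyl-CoA dehydrogenase, and Mtpbeta, of the trifunctional protein, gave 0.93 ± 0.16 and 1.10 ± 0.22 (adjusted p = 0.0039 and adjusted p = 0.0062). In amino acid metabolism 5 of 26 were called higher (2 without high replicate 2 or high replicate 3 or low replicate 2 and 9 without high replicate 1 or low replicate 3) and none lower. For amino acid metabolism the replicate block gave 11 and 0, replicates 2 and 3 alone 18 and 1 and the deposited values 11 and 0. The glutamine synthetase Gs1 read 1127, 1397 and 1455 in the high arrays and 540.3, 547 and 559 in the low arrays, with 1.26 ± 0.18 (adjusted p = 0.0019), and Kyat, a transaminase, gave 1.11 ± 0.21 (adjusted p = 0.0054). The 6 arrays of Gs1 fell into 2 separate ranges with little spread in the low fraction. In the glycogen and trehalose group 3 of 9 were called higher (1 without high replicate 2) and none lower, and AGBE, which branches glycogen, read 908, 1317 and 1482 in the high arrays and 394, 452 and 545 in the low arrays, with 1.40 ± 0.24 (adjusted p = 0.0036). For trehalose and glycogen the replicate block gave 3 and 0, replicates 2 and 3 alone 5 and 0 and the deposited values 4 and 0. In glycolysis 2 of 12 were called higher and 1 lower, with a median of 0.29. For glycolysis the replicate block gave 2 and 1, replicates 2 and 3 alone 7 and 1 and the deposited values 3 and 0. The higher calls were 4 without low replicate 1 and 5 without high replicate 1, and the lower call was lost without high replicate 3. The hexokinase Hex-C read 1939, 3140.0 and 3129 in the high arrays and 721, 1257 and 1453 in the low arrays (1.28 ± 0.25, adjusted p = 0.0062) and Pgk read 2524, 3949.9 and 3658 in the high arrays and 1398, 1603 and 1894 in the low arrays (1.03 ± 0.18, adjusted p = 0.0039), while Pglym87, a paralog of phosphoglycerate mutase, was lower at -0.89 ± 0.20 (adjusted p = 0.011). The Pglym87 call was lost without high replicate 3 (adjusted p = 0.051) and on the values as deposited (adjusted p = 0.50), with adjusted p = 0.00075 to 0.50 over its alternatives. In the citric acid cycle 2 of 10 were called higher and none lower, with a median of 0.09. For the citric acid cycle the replicate block gave 2 and 1, replicates 2 and 3 alone 3 and 3, with a median of -0.27, and the deposited values 2 and 0. The lower calls were 1 without low replicate 3 and 2 without high replicate 1. ScsbetaG, a subunit of succinyl-CoA ligase, gave 1.60 ± 0.29 (adjusted p = 0.0043) and Idh 0.74 ± 0.11 (adjusted p = 0.0026). Among 13 antioxidant enzymes 3 were called higher and 1 lower. For antioxidant enzymes the replicate block gave 5 and 1, replicates 2 and 3 alone 7 and 2 and the deposited values 4 and 0. Cat, the catalase that breaks down hydrogen peroxide, read 1935, 2903 and 2554 in the high arrays and 1113, 979 and 1149.5 in the low arrays, with 1.17 ± 0.17 (adjusted p = 0.0020), and Trxr1, the thioredoxin reductase, gave 1.08 ± 0.19 (adjusted p = 0.0039). The small glutaredoxin Grx1 was lower, at -1.13 ± 0.20 (adjusted p = 0.0039). In purine and nucleotide synthesis 4 of 15 were called higher and none lower. For purine and nucleotide synthesis the replicate block gave 4 and 0, replicates 2 and 3 alone 10 and 1 and the deposited values 4 and 0. The higher calls were 1 without high replicate 2 and 2 without high replicate 3 or low replicate 1 or low replicate 2. Paics, which carries out middle steps of the pathway, read 2063, 3328 and 2865 in the high arrays and 864, 1415 and 1458 in the low arrays, with 1.15 ± 0.24 (adjusted p = 0.0080). The call of Grx1 was lost on the values as deposited (adjusted p = 0.27).

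Enzymes of the gut and of detoxification were mixed. Of 12 maltases and amylases, which split dietary sugars, 4 were called higher (0 without high replicate 2 and 1 without high replicate 3 or low replicate 1) and none lower, with a median of 0.60. For maltases and amylases the replicate block gave 5 and 0, replicates 2 and 3 alone 9 and 0 and the deposited values 5 and 0. Mal-B1 read 279.9, 770.1 and 620.3 in the high arrays and 150.1, 163 and 200.1 in the low arrays, with 1.59 ± 0.34 (adjusted p = 0.0089), a call lost without high replicate 2 (adjusted p = 0.051), with adjusted p = 4.0e-06 to 0.058 over its alternatives. None of 28 gut serine proteases and lysozymes was called by limma with all 12 arrays. For serine proteases and lysozymes of the gut the replicate block gave 3 and 1, replicates 2 and 3 alone 2 and 11, with a median of -0.14, and the deposited values 0 and 0. Of 23 peritrophic, mucin and chitinase genes 5 were called higher, 2 lower and 16 not called, with a median of 0.38. Without high replicate 2 the counts were 3 and 1. For this group the replicate block gave 9 and 2, replicates 2 and 3 alone 12 and 3 and the deposited values 7 and 0. Among chitinases and related secreted proteins, Cht8 read 738, 1049 and 1063 in the high arrays and 219, 318 and 397 in the low arrays, with 1.63 ± 0.25 (adjusted p = 0.0027), and Idgf5 and Idgf3, growth factors of that fold, gave 1.36 ± 0.27 and 0.97 ± 0.18 (adjusted p = 0.0060 and adjusted p = 0.0054), while Cht12 was lower at -1.16 ± 0.21 (adjusted p = 0.0041). Of 72 cytochrome P450s, 12 were called higher (5 without high replicate 2, 6 without low replicate 2, 7 without high replicate 3 and 19 without high replicate 1) and 3 lower. For cytochrome P450s the replicate block gave 20 and 6, replicates 2 and 3 alone 38 and 6 and the deposited values 18 and 0. Of the 3 lower, 1 was left without high replicates 2 or 3, high 4% YE replicate 2, low replicates 1 or 2 or low 4% YE replicate 3. Cyp313a1 read 2906, 5592 and 6563 in the high arrays and 1662, 1335 and 1679.5 in the low arrays, with 1.61 ± 0.28 (adjusted p = 0.0039), and Cyp12a4 gave 1.55 ± 0.31 (adjusted p = 0.0070). Cyp6a2, which metabolises insecticides, read 135, 38.7 and 37.3 in the high arrays and 238, 253 and 232 in the low arrays, with -2.03 ± 0.40 (adjusted p = 0.0062), on the light side. The brightest, Cyp4g1, which makes the hydrocarbons of the cuticle, was at the top of the scale in all 3 high arrays, where quantile normalization gives each array's brightest probe set the same value. Glutathione S-transferases again differed between replicates, with a median of 0.32 made of 1.26, 0.05 and -0.41, and 2 of 33 were called higher (0 without high replicate 2 or high replicate 3, 1 without low replicate 1 or low replicate 2 and 5 without low replicate 3) and 1 lower (0 without high replicate 2 or high replicate 3 or low replicate 2 and 2 without low replicate 1). For glutathione S-transferases the replicate block gave 5 and 1, replicates 2 and 3 alone 4 and 8, with a median of -0.16, and the deposited values 3 and 0. Among carriers and processors of juvenile hormone, 4 of 9 were called higher and none lower. For the juvenile hormone group the replicate block gave 6 and 0, replicates 2 and 3 alone 7 and 1 and the deposited values 5 and 0. The count of 4 was 1 without high replicate 2 or high replicate 3 and 2 without low replicate 2. The esterase relative Jhedup read 240.4, 281 and 244 in the high arrays and 59.8, 85.0 and 115 in the low arrays, with 1.59 ± 0.23 (adjusted p = 0.0021). The calls of Cht12 and Cyp6a2 were lost on the values as deposited (adjusted p = 0.064 to 0.15).

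Among genes of neurons and photoreceptors, more were called higher than lower, and most were not called. Of 26 synaptic and neuronal genes 7 were called higher (2 without high replicate 2 or high replicate 3, 3 without low replicate 2 and 4 without low replicate 1) and none lower, with a median of 0.53 and of 0.67, 0.23 and 0.55 in the replicates. For synaptic and neuronal genes the replicate block gave 11 and 1, replicates 2 and 3 alone 11 and 1 and the deposited values 8 and 0. The summed neuron markers given above did not lie higher in the high array of every replicate. The marker brp was dimmer in the high array of each, but it lay below background in high replicates 2 and 3 and low replicate 3. Its direction is therefore uncertain. Gad1, which makes the transmitter GABA, read 1086, 1372 and 1759 in the high arrays and 348, 395 and 433 in the low arrays, and each high array was more than 2-fold above each low array. Its index was 1.82 ± 0.24 (adjusted p = 0.0016). Appl, the fly's relative of the amyloid precursor protein, read 393, 892 and 1132 in the high arrays and 148, 164 and 210.4 in the low arrays, with 2.09 ± 0.42 (adjusted p = 0.0068), and high replicate 1 was well below the other high arrays. Of 19 genes of phototransduction 8 were called higher and none lower, with a median of 0.63 (0.54, 0.50 and 0.57), much alike in the 3 replicates. For phototransduction the replicate block gave 9 and 0, replicates 2 and 3 alone 11 and 3 and the deposited values 8 and 0. The count of 8 was 3 without high replicate 2, 4 without high replicate 3 or high 4% YE replicate 2 or high 4% YE replicate 3 or low replicate 2 or low 4% YE replicate 2 or low 4% YE replicate 3 and 5 without low replicate 1. The kinase inaC, an eye protein kinase C, read 571, 547 and 694 in the high arrays and 199.1, 205.1 and 212 in the low arrays, with 1.55 ± 0.20 (adjusted p = 0.0015). The arrestins Arr1 and Arr2, which shut off rhodopsin, gave 1.05 ± 0.22 and 0.92 ± 0.15 (adjusted p = 0.0085 and adjusted p = 0.0033). The summed photoreceptor markers given above lay higher in the high arrays in the same way and share inaC, Arr1 and Arr2 with this group. Neuropeptide precursors had 7 of 26 called higher (2 without high replicate 2, 3 without high replicate 3 and 12 without low replicate 3) and 1 lower, with a median of 0.76 and of 1.07, 0.69 and 0.30 in the replicates. For neuropeptides the replicate block gave 10 and 1, replicates 2 and 3 alone 14 and 4 and the deposited values 8 and 0. Nplp1, which holds several peptides, read 388, 294 and 331 in the high arrays and 144, 112 and 124 in the low arrays, with 1.41 ± 0.21 (adjusted p = 0.0024), and NPF, the neuropeptide F of feeding, read 136, 198 and 204.8 in the high arrays and 49.1, 66.4 and 97.0 in the low arrays, with 1.36 ± 0.26 (adjusted p = 0.0057). Nplp3, a short precursor, was lower at -1.14 ± 0.26 (adjusted p = 0.011), a call lost without high replicate 2 (adjusted p = 0.060) and on the values as deposited (adjusted p = 0.22), with adjusted p = 2.0e-06 to 0.22 over its alternatives.

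Some genes of coats and chromatin were called higher, with less margin. Of 10 genes of COP vesicle coats, which carry proteins between the endoplasmic reticulum and the Golgi, 4 were called higher (0 without high replicate 2 or high replicate 3 or low replicate 2) and none lower, with a median of 0.33. For COP coat genes the replicate block gave 4 and 0, replicates 2 and 3 alone 6 and 0 and the deposited values 4 and 0. The coatomer subunit gammaCOP read 524, 853 and 1038 in the high arrays and 462, 341 and 362 in the low arrays, with 1.01 ± 0.28 (adjusted p = 0.024), a call lost without high replicate 2 (adjusted p = 0.10), high replicate 3 (adjusted p = 0.10) and low replicate 2 (adjusted p = 0.082), with adjusted p = 1.3e-05 to 0.10 over its alternatives. Of 29 chromatin regulators 8 were called higher and none lower, with a median of 0.27 and of 0.05, 0.41 and 0.63 in the replicates. For chromatin regulators the replicate block gave 8 and 1, replicates 2 and 3 alone 14 and 2 and the deposited values 7 and 0. The count of 8 was 0 without high replicate 2 or high replicate 3, 1 without low replicate 2, 4 without high 4% YE replicate 2 or low 4% YE replicate 3 and 5 without high 4% YE replicate 3 or low replicate 1 or low replicate 3 or low 4% YE replicate 2. The acetyltransferase nej read 155, 125 and 142 in the high arrays and 58.2, 62.3 and 72.8 in the low arrays, with 1.12 ± 0.28 (adjusted p = 0.018), a call lost without high replicate 2 (adjusted p = 0.053), high replicate 3 (adjusted p = 0.057) and low replicate 2 (adjusted p = 0.055), with adjusted p = 0.00048 to 0.057 over its alternatives. Very large proteins of the cytoskeleton and of adhesion had 0 of 26 called by limma and a median of 0.05, and folding enzymes of the endoplasmic reticulum 0 of 15 and a median of 0.00. For very large cytoskeletal and adhesion proteins the replicate block gave 1 and 1, replicates 2 and 3 alone 5 and 4, with a median of -0.09, and the deposited values 0 and 0. For ER protein folding the replicate block gave 2 and 0, replicates 2 and 3 alone 7 and 2 and the deposited values 0 and 0.

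Genes of insulin and TOR signalling, the nutrient pathway that sets growth and translation, had 4 called higher (0 without high replicate 2 or high replicate 3 and 2 without high 4% YE replicate 2 or high 4% YE replicate 3) and none lower of 25, with a median of 0.14. For insulin and TOR signalling the replicate block gave 8 and 4, replicates 2 and 3 alone 11 and 9 and the deposited values 8 and 0. REPTOR, a transcription factor active when TOR is low, read 192, 294 and 285 in the high arrays and 119, 126 and 92.2 in the low arrays, with 1.17 ± 0.29 (adjusted p = 0.015), a call lost without high replicate 2 (adjusted p = 0.076) and high replicate 3 (adjusted p = 0.059), with adjusted p = 2.7e-05 to 0.076 over its alternatives. Akt, the kinase downstream of the insulin receptor, read 344, 967 and 1004 in the high arrays and 219.9, 272 and 308 in the low arrays. Here high replicate 1 was close to the low arrays. Its index was 1.39 ± 0.45 (adjusted p = 0.044), a call lost without high replicate 2 (adjusted p = 0.18), high replicate 3 (adjusted p = 0.16), high 4% YE replicate 2 (adjusted p = 0.053), high 4% YE replicate 3 (adjusted p = 0.058), low replicate 1 (adjusted p = 0.10), low replicate 2 (adjusted p = 0.096), low replicate 3 (adjusted p = 0.055), low 4% YE replicate 2 (adjusted p = 0.054) and low 4% YE replicate 3 (adjusted p = 0.060), with adjusted p = 3.6e-06 to 0.18 over its alternatives. The receptor substrate chico read 260.0, 577 and 770.3 in the high arrays and 213, 226 and 251 in the low arrays, with 1.08 ± 0.39, not called (adjusted p = 0.069) but called with the replicate block (adjusted p = 0.0060). The same held for Tsc1, a brake on TOR, at -1.01 ± 0.51 (adjusted p = 0.18, and adjusted p = 0.0044 with the block), and for Sesn, another, at -0.96 ± 0.35 (adjusted p = 0.070, and adjusted p = 0.019), both on the light side. The repressor gig and the cap-binding factor eIF4E1 were not called, at 0.14 ± 0.34 (adjusted p = 0.79) and -0.05 ± 0.17 (adjusted p = 0.85), nor was foxo, the transcription factor that insulin signalling holds back, at 0.67 ± 0.47 (adjusted p = 0.33). The control gene Gapdh1 gave 0.28 ± 0.13 (adjusted p = 0.12).

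Among called genes whose fractions did not overlap and that lay above background in at least 2 of 3 arrays of each fraction, many of the largest indices belonged to genes that the annotation leaves without a name. Among the 15 most positive of these, CG40467 read 238, 663 and 1066 in the high arrays and 45.4, 78.5 and 114 in the low arrays (2.88 ± 0.48, adjusted p = 0.0033), CG11893 read 232, 731 and 881 in the high arrays and 41.2, 85.8 and 144 in the low arrays (2.72 ± 0.51, adjusted p = 0.0053) and CG5096 read 1008, 2259.8 and 2604 in the high arrays and 186, 412 and 542 in the low arrays (2.38 ± 0.43, adjusted p = 0.0043). That their fractions lay apart was a condition of the choice. In all 3, replicate 1 was the dimmest of each fraction. Among these 15 were CG11892, CG11893 and CG13658, which are near neighbours in the RefSeq table. Their indices were 2.52, 2.72 and 2.61. CG11892 lost its call without high replicate 2 (adjusted p = 0.059), with adjusted p = 6.8e-06 to 0.059 over its alternatives, and CG13658 without high replicate 2 (adjusted p = 0.10), high replicate 3 (adjusted p = 0.096), low replicate 1 (adjusted p = 0.073) and low replicate 2 (adjusted p = 0.051), with adjusted p = 4.0e-06 to 0.10. The stress kinase p38c read 131, 229.5 and 233 in the high arrays and 41.2, 33.5 and 42.9 in the low arrays, with 2.26 ± 0.24 (adjusted p = 0.00090) and a narrow low fraction. CG44251 was the gene among the 15 with its high replicate 1 above the other high arrays, at 146, 80.4 and 83.2 in the high arrays and 17.1, 17.7 and 25.2 in the low arrays (2.28 ± 0.32, adjusted p = 0.0019). Among the 15 most negative were CG42481, CG13751, CG17376 and CG31029. CG13751 read 204, 131 and 228 in the high arrays and 1709, 649 and 544 in the low arrays (-2.21 ± 0.37, adjusted p = 0.0036) and CG17376, by its brightest of 3 probe sets with negative indices, read 437, 342 and 504 in the high arrays and 2554, 1676 and 1622 in the low arrays (-2.17 ± 0.26, adjusted p = 0.0012). Hsc70-1, a relative of the heat shock chaperones, also stood there, at 481, 375 and 314 in the high arrays and 2109, 1801 and 1479 in the low arrays (-2.21 ± 0.22, adjusted p = 0.00080), but 1 of its 3 probe sets had a positive index.

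**Figure D5:**
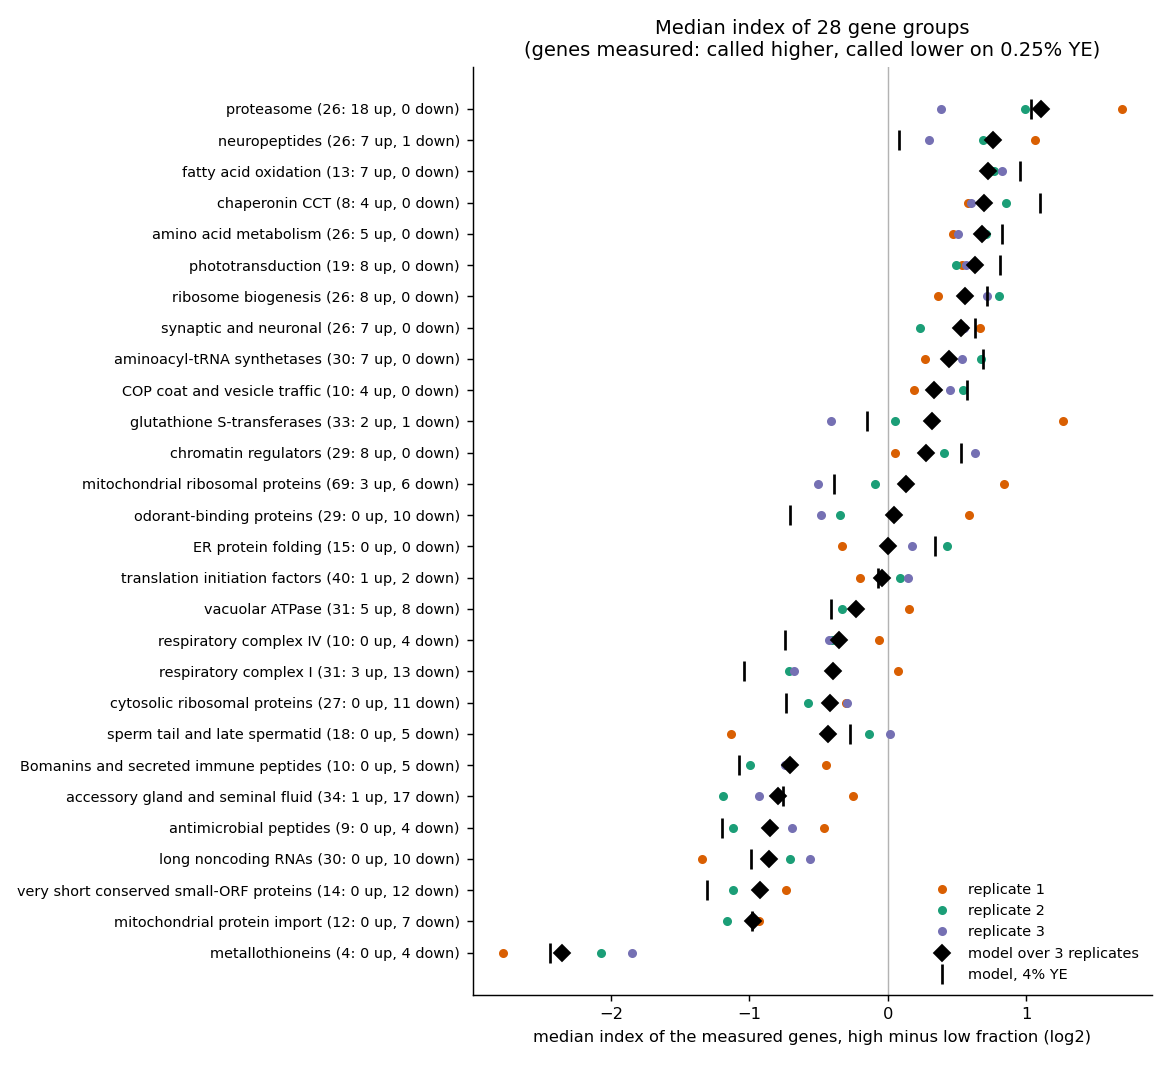
Median index (log2, high minus low fraction) of the measured genes of 28 groups on 0.25% YE, as a diamond for the model, coloured points for the replicates and a bar for the model on 4% YE. Labels give the genes measured, called higher and called lower. The proteasome lies at 1.11 and the metallothioneins at -2.35. Replicate 1 lies across 0 from replicates 2 and 3 for mitochondrial ribosomal proteins and odorant-binding proteins. The same holds for respiratory complex I, the vacuolar ATPase, ER protein folding and translation initiation factors.

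Set beside the rich food, the index on restricted food was not shown to differ for nearly all mRNAs. The test of the difference between the 2 indices called 1 of 11261 probe sets (0.00888%), with 485 at an unadjusted p under 0.05 (4.31%), and among the members of the groups it called none. The groups' medians on 4% YE are given side by side with those on 0.25% YE, as the foods share no array. For the proteasome they were 1.03 and 1.11, for the metallothioneins -2.44 and -2.35, for mitochondrial import -0.98 and -0.98, and for the accessory gland -0.76 and -0.79. Those 4 lay close together. Wider apart were complex I, at -1.04 on 4% YE and -0.39 on 0.25% YE, odorant-binding proteins, at -0.71 and 0.04, mitochondrial ribosomal proteins, at -0.39 and 0.13, and neuropeptides, at 0.08 and 0.76. In the first 3 of these wider gaps replicate 1 on 0.25% YE lay well above replicates 2 and 3, at 0.08, 0.59 and 0.84 against -0.71 and -0.68, -0.35 and -0.48, and -0.09 and -0.50. Its part in the gap between foods was not tested. Genes of the shortest span had a median of -1.54 on 4% YE and -1.10 on 0.25% YE, and those of the longest 0.53 and 0.37.

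Where replicate 1 departed, whole groups moved together. Of the 76 groups described, the median of replicate 1 had the other sign than those of replicates 2 and 3 in 24. For glutathione S-transferases, mitochondrial ribosomal proteins and Npc2 sterol-binding proteins replicate 1 stood at 1.26, 0.05 and -0.41, 0.84, -0.09 and -0.50 and 0.72, -0.61 and -0.69 in the order of replicates 1, 2 and 3. The median spans of these 3 groups were 1059, 909 and 812 bases. The median of genes of the shortest span was negative in every replicate, as shown above. The genes of chromosome 4, with a median span of 10463 bases, had medians of -0.20, 0.62 and 0.79, although 2 of 57 were called higher and 2 lower. The labels record nothing that sets replicate 1 apart, and the cause of its departure was not tested.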

How the data were processed

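RNA of the low and the high polysome fraction was measured on 12 one-colour Affymetrix Drosophila arrays, 3 in each of 4 groups of food and fraction, from 100 ng of RNA each per the labels. The deposited values are intensities on a linear scale, 1 per probe set and array. Their array medians of 39.3 to 95.6 differ, 9.45% to 13.7% of values per array lie below 0, and how the authors summarised probes, corrected background or scaled arrays is not given in the sources used here. The deposited intensities, with 100 control probe sets among them, were quantile-normalized over all 12 arrays, floored at 0 and put on the log2(value + 1) scale. The controls were then left out. Of the other 18769 the 40% with the lowest mean (below 23.7) were left out, which left 11261. Symbols came from the platform's annotation. Of 18769 probe sets 13646 had 1 symbol, 402 several and 4721 none, and 13543 of those with 1 matched the RefSeq gene table. Probe sets with several or no symbol were tested and not named. Of the tested ones 10040 had 1 symbol, for 9494 genes, each by its brightest probe set. Of 18 called named genes with several probe sets, 15 had 1 sign in all.

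In limma 3.58.1 under R 4.3.3, a model of 4 group means, with 8 degrees of freedom left over, was fitted (lmFit, eBayes with an intensity trend), with Benjamini-Hochberg adjustment over all probe sets, and a two-sided adjusted p under 0.05 was a call. The labels speak of biological replicates, and p-values measure the spread between these samples. The number of arrays, 3 per group, limits the precision. Replicate numbers came from the titles, and those of 4% YE with no number were taken as the first. Departures of same-numbered high and low arrays from their group means correlated at 0.285, 0.195 and 0.165 on 0.25% YE and above 0.1 in all 6 pairs of the study (0.165 to 0.505). The numbers were taken to pair the arrays, although the labels do not say what they stand for. On 0.25% YE high replicate 2 correlated at 0.425 with low replicate 3, and high replicate 3 at 0.015 with low replicate 2. These values do not settle how replicates 2 and 3 pair, so the pairing is an assumption. The block is an alternative. A fold against a group with no array above background is a bound, the brighter mean over the mean of the higher of value and background in each dim array. The arrays, groups of genes and tests were chosen with earlier results of these data known. Named genes were the 15 largest and 15 smallest indices among called, non-overlapping genes above background in at least 2 of 3 arrays of both fractions, up to 5 called members of smallest p per group of genes with every called member on its other side, up to 5 changes between foods each way and a fixed set of genes such as InR, SP and Cat. The text prints a part of these 317. Of 78 gene groups, 76 had at least 3 measured genes and are described by counts and medians. The analysis by protein length was not run, since no protein table was given, and the genomic span took its place after the data were seen, as did the count by RefSeq class and the recounts of groups. On simulated data with 100 probe sets changed at each size, the index on 0.25% YE was recovered for 21 at 2-fold and 83 at 4-fold, and 7 of 11061 unchanged ones were called. The simulated noise was independent between arrays, with no shared departure of a replicate. Far fewer probe sets were changed than the 21.4% called in the data. These counts therefore do not give the share of missed or false calls in the data. Alternatives were another pseudocount (16), filter (60% or none), scaling (as deposited, common median), eBayes without the trend, the replicate block, the 6 arrays alone, replicates 2 and 3 alone and leaving out each array. Figures were drawn with matplotlib 3.10.9 in Python 3.11.15.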

Additional observations from a re-analysis of the deposited data

Results flagged for a closer look

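CG43131 was the probe set whose index differed between the foods by limma's test of the difference. On 0.25% YE its normalized intensities were 17.4, 34.7 and 38 in the high arrays and -8.24, -7.05 and 1.08 in the low arrays, with an index of 4.53 ± 0.45 (SE, adjusted p = 0.00080), and on 4% YE its index was -0.77 (adjusted p = 0.20). The difference was 5.30 ± 0.63 on the log2 scale (SE, adjusted p = 0.022). None of its low arrays on 0.25% YE lay above background, so the size of the index is no measure of a fold. The call was lost with a pseudocount of 16, with 60% of the probe sets left out, with the replicate block, without high replicate 2 or 3, and without any 1 array of 4% YE, and the cause was not tested.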

How the results depend on the processing

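Against 2413 calls (1088 higher, 1325 lower), the 6 arrays alone gave 387 (121 and 266), leaving out replicate 1 on 0.25% YE 3835 (1774 and 2061), replicates 2 and 3 alone 6476 (3195 and 3281), the replicate block 3933 (1892 and 2041), the replicate block within diet 1658 higher, and the values as deposited 1583 with 124 lower. Without any 1 array the calls ranged from 753 to 3577, the higher from 267 to 1629 and the lower from 486 to 1948. The 1 call of the index change became 0 with a pseudocount of 16, with 60% of probe sets left out, with the replicate block and with the replicate block within diet, 3 without the intensity trend, 4 without a filter and 7 with replicates 2 and 3 alone, and 0 to 1 without an array. The replicate block kept all 308 named calls, and the 4 genes InR, chico, Tsc1 and Sesn were called with it and not without it. None of the 308 called named genes changed sign in any alternative run, while eIF4E1 (-0.05, and 0.46 as deposited) and gig (0.14, and -0.17 without low replicate 3), which were not called, did. Of the 76 group medians, taken less that of all probe sets, 69 kept their side as deposited and with arrays scaled to a common median, and 65 to 76 without an array. Of the values of named genes in the alternatives, 6102 kept their call or lack of it, 1129 lost the call and 29 gained it. The medians by span, less that of all probe sets, ranged from -1.24 to -0.93 (up to 500 bases) and from 0.24 to 0.44 (over 32000) without an array. The model of 6 arrays has fewer degrees of freedom, takes no spread from the 4% YE arrays and was normalized over those 6 alone. The cause of its lower count and of the other moves was not tested, and the analysis by protein length was not run. Dim probe sets below background give bounds. In simulation 2-fold differences were mostly missed, but with independent noise and few changed probe sets, so that share need not hold for these data.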

Other observations

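Tubulin paralogs lay on both sides. Of 7 measured 3 were called higher, 1 lower and 3 not called, with a median of 0.53. The higher calls were 1 without high replicate 2 or high replicate 3 or low replicate 2 and 4 without low replicate 1. For tubulins the replicate block gave 4 and 1, replicates 2 and 3 alone 5 and 2 and the deposited values 4 and 0. The alpha-tubulin gene alphaTub85E read 276, 323 and 236 in the high arrays and 114, 76.3 and 100.3 in the low arrays, with an index of 1.52 ± 0.24 (adjusted p = 0.0027), while the beta-tubulin gene betaTub65B read 109.7, 59.6 and 56.0 in the high arrays and 320.4, 200.4 and 200.03 in the low arrays, with -1.70 ± 0.30 (adjusted p = 0.0039). Mitochondrial carriers, which move metabolites across the inner membrane, had 0 of 16 called higher and 4 lower, and Dic3 read 115, 66.2 and 78.8 in the high arrays and 265, 225 and 233 in the low arrays (-1.50 ± 0.22, adjusted p = 0.0020), Ucp4C gave -1.49 ± 0.25 (adjusted p = 0.0036) and Bmcp -1.11 ± 0.23 (adjusted p = 0.0073). For mitochondrial carriers the replicate block gave 0 and 6, replicates 2 and 3 alone 0 and 8 and the deposited values 0 and 1. Of 36 ABC and solute transporters 7 were called higher, 1 lower and 28 not called, with a median of 0.06. Without high replicate 2 the counts were 4 and 0, and without high replicate 1 they were 10 and 4. For these transporters the replicate block gave 10 and 3, replicates 2 and 3 alone 14 and 6 and the deposited values 8 and 0. The exporter Mdr65 read 97.4, 166 and 186 in the high arrays and 55.9, 59.0 and 64.7 in the low arrays (1.26 ± 0.24, adjusted p = 0.0051) and the organic anion transporter Oatp58Dc 736, 957 and 912 in the high arrays and 486, 362 and 429 in the low arrays (1.03 ± 0.21, adjusted p = 0.0067). The eye pigment transporter st gave 1.11 ± 0.20 (adjusted p = 0.0048).

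Among regulators, crc, the fly's ATF4, whose mRNA holds upstream reading frames in this and other animals, read 1772, 2154 and 2651 in the high arrays and 4868, 4359.9 and 3878 in the low arrays, with an index of -1.01 ± 0.22 (adjusted p = 0.0087). Its low arrays all exceeded its high arrays. Gbp1, a growth-blocking peptide that the larval fat body secretes in response to amino acids, read 545, 456 and 511 in the high arrays and 1183, 1114 and 1075 in the low arrays, with -1.16 ± 0.18 (adjusted p = 0.0025). The autophagy receptor ref(2)P read 1479, 1338 and 1358 in the high arrays and 883, 798 and 719 in the low arrays, with 0.80 ± 0.16 (adjusted p = 0.0068), and the serpin Spn55B 491, 568 and 642 in the high arrays and 134, 221 and 310.2 in the low arrays, with 1.43 ± 0.30 (adjusted p = 0.0081). The fat body's regucalcin read 3117, 3231 and 3117 in the high arrays and 866, 1659 and 2025 in the low arrays, with 1.14 ± 0.24 (adjusted p = 0.0088), and low replicate 1 was the dimmest. Of the genes with spans of up to 1000 bases, the 21 called higher included Prosbeta4, Rpn12, Trissin and CG3088, chosen here after their values were seen. The call of Trissin was lost without high replicate 2 (adjusted p = 0.093), high replicate 3 (adjusted p = 0.079) and low replicate 2 (adjusted p = 0.066). On the values as deposited the calls of betaTub65B (adjusted p = 0.065), Dic3 (adjusted p = 0.083), Ucp4C (adjusted p = 0.063), Bmcp (adjusted p = 0.24), crc (adjusted p = 0.067) and Gbp1 (adjusted p = 0.24) were lost.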
